A study of Rattus norvegicus with 14 samples.

Results

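Igfbp6 and Igfbp7, 2 members of the insulin-like growth factor (IGF) binding protein family, contributed 20 and 3 transcription start sites (TSSs) to a table of 4993 candidate TSSs of rat Schwann cells. All 23 TSSs that the table assigns to these symbols were taken. The candidates are TSSs of sciatic nerve that lie within 1 kb of an H3K4me3 peak, a histone mark of active promoters, which itself overlaps a peak of SOX10, the transcription factor that directs the Schwann cell lineage. Both genes were selected on their RPM in nerve and in primary Schwann cells with and without cAMP, so those levels and the response to cAMP are described without a test. The comparison of S16 cells with and without SOX10 was not among those values and is tested.

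Transcript 5′ ends were measured by Tn5Prime, which captures the 5′ end of each transcript during reverse transcription, in 14 libraries. The 2 nerve libraries came from sciatic nerves of adult wild type rats aged 6 to 9 months, and hold every cell type of the nerve. Wild type primary rat Schwann cells were bought from a supplier and kept in medium with neuregulin and forskolin until the day after plating. They later received vehicle (control, n = 3) or 250 µM CPT-cAMP for 3 days (cAMP, n = 3), both in 5% serum. S16 cells, an immortalized rat Schwann cell line grown in 10% serum, were unedited (parental, 2 libraries of 1 line) or single-cell clones carrying only frameshift alleles of Sox10 made with CRISPR/Cas9 (ΔSOX10, n = 4, labelled 1-1, 1-2, 2-1 and 2-2). Nerve and S16 libraries were run on a HiSeq and primary cell libraries on a NovaSeq instrument, so that instrument and model cannot be told apart in any comparison between them. Library totals ran from 29895599 to 79940274 reads, and 1 read was worth 0.0125 to 0.0334 RPM (reads scaled to the library total). The Sox10 TSS had 77.5 and 90.7 RPM in the parental libraries and between 0 and 0.114 RPM in the clones. Its 5′ ends do not read the edited bases.

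IGF binding proteins are secreted proteins that hold IGF1 and IGF2 outside the cell, and so decide how much ligand reaches the IGF1 receptor. Binding to that receptor recruits insulin receptor substrates and SHC adaptors, which pass the signal to the PI3K, AKT and mTOR branch and to the RAS and ERK branch, and IGF1 is known as a survival and growth factor of Schwann cells. IGFBP6 is known for its preference for IGF2, whereas IGFBP7 binds IGFs weakly and is found in the extracellular matrix.

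The sequence before each annotated start is shown because the promoters of the 2 genes differ widely in base composition. Both are from RefSeq (GRCr8, plus strand), run for 250 bases up to the annotated start, and have CpG dinucleotides in capitals. GRCr8 positions were not mapped to rn5, the build of the TSSs. The Igfbp6 window is chr7:135154669-135154918 and the Igfbp7 window is chr14:31091486-31091735.
Igfbp6: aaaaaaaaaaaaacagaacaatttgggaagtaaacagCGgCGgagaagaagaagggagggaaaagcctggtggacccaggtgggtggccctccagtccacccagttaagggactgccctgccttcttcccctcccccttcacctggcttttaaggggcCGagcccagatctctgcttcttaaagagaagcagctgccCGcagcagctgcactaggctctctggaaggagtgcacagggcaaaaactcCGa
Igfbp7: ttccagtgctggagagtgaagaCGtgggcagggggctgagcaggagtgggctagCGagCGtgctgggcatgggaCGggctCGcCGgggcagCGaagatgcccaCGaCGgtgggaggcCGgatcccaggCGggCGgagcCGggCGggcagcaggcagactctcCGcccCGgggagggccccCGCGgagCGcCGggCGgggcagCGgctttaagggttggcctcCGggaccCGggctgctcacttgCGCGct

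The Igfbp7 window held 26 CpG dinucleotides and 74.4% G and C, a CpG count above that of 91.4% of 33469 RefSeq promoter windows of the same length. The Igfbp6 window held 5 CpG dinucleotides, which is also the median of all windows, and 54.8% G and C against a median of 51.2%. Motifs were searched on both strands as exact letters, and 30.5% of the windows held the GC box (GGGCGG). Igfbp7 had 4 GC boxes and Igfbp6 none. Neither window held ACAAAG or ACAATG, forms of the SOX10 core, which were in 16.3% and 11.1% of windows. Neither held the core of the cAMP response element (TGACG, 18.2% of windows), the TATA box (TATAAA, 12.9%), the AP-1 site (TGANTCA, 6.34%) or the E-box (CACGTG, 5.59%). The search was limited to these windows and was not made under the SOX10 peaks. Those peaks lie downstream of the main TSS (highest mean RPM over all libraries), by 359 bp at Igfbp7 and 1403 bp at Igfbp6.

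Igfbp7 was among the most abundant candidate transcripts of control Schwann cells and stood at a small part of that level elsewhere. Its main TSS, TSS 1, lies on the plus strand of chromosome 14 at 32803831 to 32803841 (rn5), 359 bp before a SOX10 peak at 32804200 to 32804399 and inside an H3K4me3 peak at 32803512 to 32806309. The files do not say whether positions count from 0 or 1, so each may be off by 1 base. TSS 1 had 3686, 5559 and 4166 RPM in the control libraries. It had 11.4, 14.3 and 16.7 RPM in the cAMP libraries. The lowest control library was thus far above the highest cAMP library, and the fold between the means was 316 (4470 ± 973 against 14.1 ± 2.68 RPM, SD, n = 3 each).

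**Figure D1:**
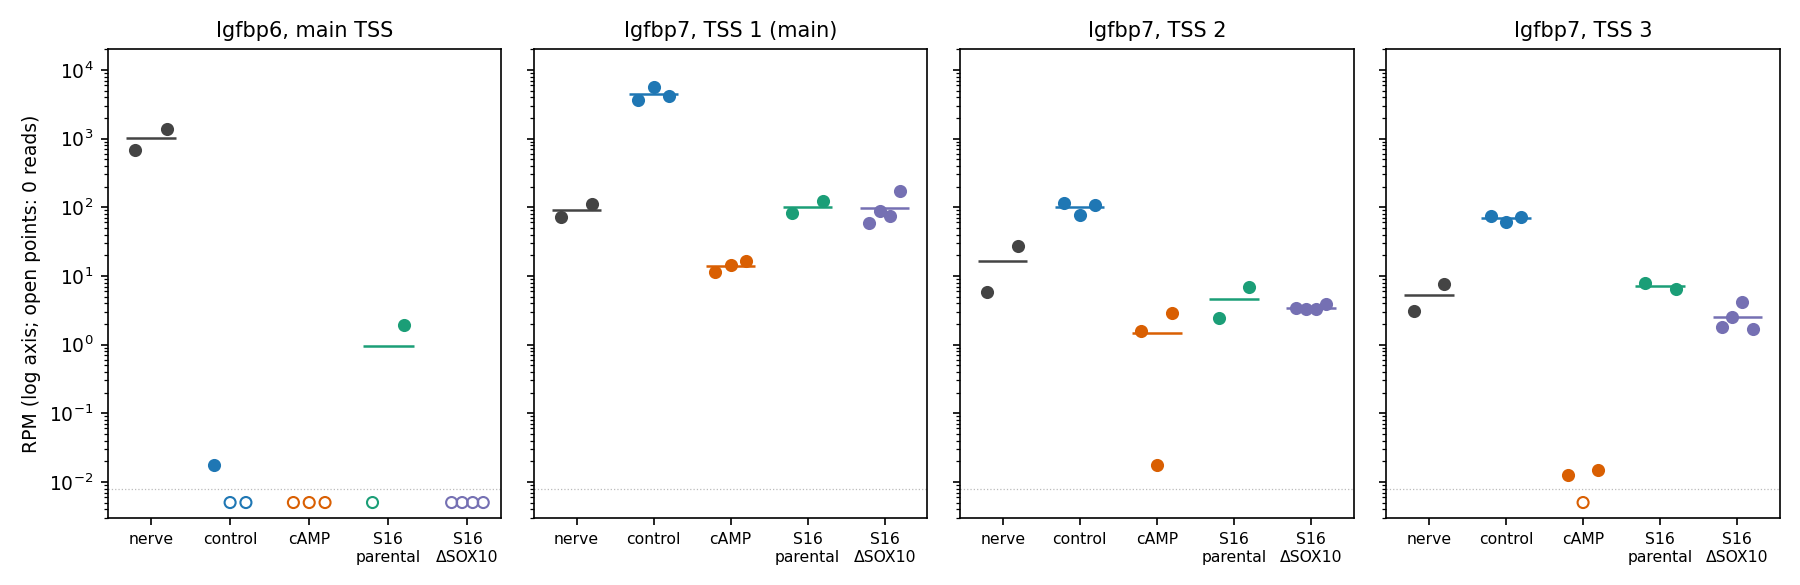
RPM (log axis) of the Igfbp6 main TSS and the 3 Igfbp7 TSSs in each of 14 libraries (points), with open points for 0 reads and horizontal lines for group means above 0.01 RPM. Igfbp6 was high in both nerves alone, while all 3 Igfbp7 TSSs had their highest group mean in control Schwann cells and their lowest in cAMP-treated ones.

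In nerve, TSS 1 of Igfbp7 had 71.4 and 110 RPM. The parental S16 libraries had 81.1 and 123 RPM, and the clones 59.5 (1-1), 87.2 (1-2), 75.0 (2-1) and 173 RPM (2-2). Nerve, parental and ΔSOX10 libraries overlapped, so these neighbours in the order of levels do not differ beyond their spread. Control libraries stood above all of these groups, by 49.3-fold over the nerve mean and 43.8-fold over the parental mean, and cAMP libraries stood below them all. Scaling over all 14 libraries narrowed the gap to nerve, with means of 3847 and 118 RPM (TMM) or 3646 and 149 RPM (median-ratio) in control cells and nerve. By mean RPM of 5′ ends, a scale that needs no division by length, TSS 1 ranked 7 of 4993 in control cells. It ranked 387 in nerve, 563 in parental cells, 520 in the clones and 2137 in cAMP-treated cells.

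TSS 2 (32804196 to 32804246) and TSS 3 (32804299 to 32804326) overlap the SOX10 peak. They start 365 and 468 bp downstream of TSS 1. TSS 2 had 116, 75.9 and 108 RPM in control libraries and 1.55, 0.0178 and 2.85 RPM in cAMP libraries, a fold of 67.9 between the means. The second cAMP library held 1 read of TSS 2, where the others held 124 and 194. TSS 3 had 75.5, 61.7 and 72.0 RPM in control libraries and 1, 0 and 1 reads in the cAMP libraries. Against a floor of 3 reads in each cAMP library, its control mean was at least 1549-fold higher. All 3 TSSs of Igfbp7 therefore had lower values in every cAMP library than in any control library. In the same direction the groups were separate at 17.4% of 4119 TSSs tested, and limma called 11% lower and 12.9% higher. The choice of the gene rests on this contrast, and nothing is read from the count.

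TSS 1 carried most Igfbp7 reads in every library, and its share was lowest in the second nerve. It gave 95.1, 97.6 and 95.9% of Igfbp7 RPM in control libraries, 88.9 and 76.0% in nerve and 87.9, 99.9 and 85.4% with cAMP. The share of TSS 2 was 7.29 and 18.8% in nerve, against 1.33 to 2.99% in control cells. TSS 3 gave 1.08 to 1.95% in control cells and at most 0.0966% with cAMP. In S16 cells TSS 3 gave 8.74 and 4.70% in the parental libraries and 2.83, 2.73, 4.98 and 0.956% in the clones. The highest clone (2-1) was above the lower parental library, so these shares overlapped.

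**Figure D2:**
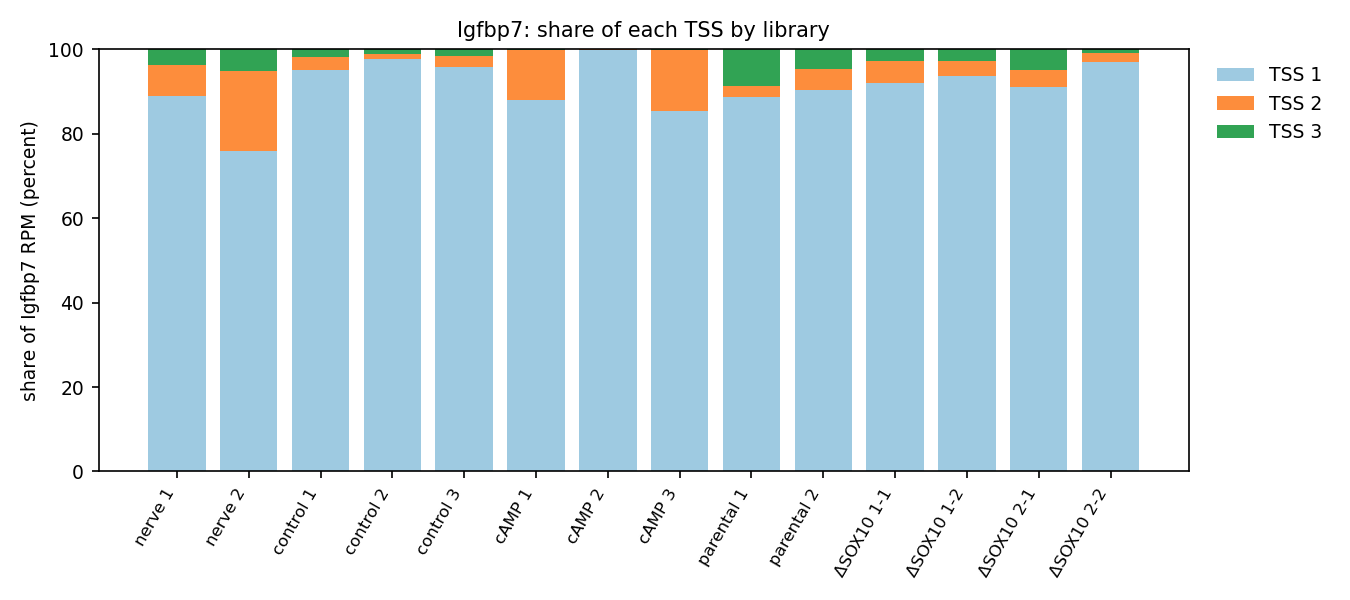
Share (percent) of Igfbp7 RPM carried by each of its 3 TSSs in each library, as stacked bars that sum to 100. TSS 1 carried between 76.0% (second nerve) and 99.9% (second cAMP library).

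The comparison of ΔSOX10 clones with parental S16 cells asked whether Igfbp7 5′ ends depend on SOX10 in a line that has it. None of the 3 Igfbp7 TSSs passed the test (limma on log2(RPM + 1), Benjamini-Hochberg adjusted over 3875 TSSs), where 8.21% of all tested TSSs passed, 6.55% lower and 1.65% higher. TSS 1 differed by -0.14 on the log2 scale (SE 0.39, 95% interval -1.03 to 0.76, adjusted p = 0.883 by limma). TSS 2 had 2.46 and 6.84 RPM in the parental libraries and 3.36, 3.28, 3.31 and 3.85 RPM in the clones. Its clones lay between the parental values, and its log2 difference was -0.23 (SE 0.44, 95% interval -1.23 to 0.77, adjusted p = 0.827 by limma). The sign of the TSS 1 difference turned under TMM or median-ratio scaling. With either scaling the median of all tested TSSs moved from -0.18 to -0.05 on the log2 scale. Both intervals include 0 and changes of more than 0.7 on the log2 scale in either direction, and do not show that the groups are alike.

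TSS 3 had the largest difference of the 3. It had 8 and 6.40 RPM in the parental libraries and 1.83, 2.54, 4.10 and 1.71 RPM in the clones, and the groups did not overlap. The difference was -1.25 on the log2 scale (SE 0.42, 95% interval -2.22 to -0.28, unadjusted p = 0.0169, adjusted p = 0.127 by limma), so the difference did not pass. Groups were separate in this direction at 21.7% of tested TSSs, and 20% of tested TSSs had an unadjusted p under 0.05. The adjusted p of TSS 3 ran from 0.0824 to 0.707 over the alternatives that kept it, and edgeR and DESeq2 on recovered reads gave 0.249 and 0.354. With both nerve libraries at 3.04 and 7.53 RPM, the nerve spanned the gap between parental cells and clones at TSS 3.

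Igfbp6 showed a different distribution, with high levels in nerve and almost no reads at its candidate TSSs in any culture. Candidates are starts found in nerve, so a start used in culture alone would not be listed. The main TSS of Igfbp6, the fourth of 20 in the direction of transcription, lies on the plus strand of chromosome 7 at 141546158 to 141546197 (rn5). It had 678 and 1372 RPM in the 2 nerves (1025 ± 490 RPM, SD, n = 2) and ranked 18 of 4993 there. In culture it had 1 read in the first control library, 74 reads (1.92 RPM) in the second parental library and 0 reads in the other 10 libraries. Against a floor of 3 reads per library, the nerve mean was at least 19628-fold above control, 22777-fold above cAMP and 12808-fold above ΔSOX10 cells. It was 1069-fold above the parental mean, a value that the 74 reads of the second library set alone. Median-ratio scaling over all 14 libraries put the nerve mean at 1687 RPM.

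The 20 Igfbp6 TSSs lie in 2 blocks on either side of a SOX10 peak at 141547600 to 141547999, and the H3K4me3 peak at 141545626 to 141549267 covers the first 18, overlaps TSS 19 and ends before TSS 20. The upstream block holds 14 TSSs over 488 bp and took 85.7 and 90.4% of Igfbp6 RPM in the 2 nerves. The downstream block holds 6 TSSs over 357 bp and took 14.3 and 9.60%. No Igfbp6 TSS overlaps the SOX10 peak: the nearest edges are 962 to 1565 bp away, whereas 51.7% of the 4993 candidates overlap theirs. The main TSS ends 1403 bp before the peak and alone carried 78.2 and 84.9% of the gene's RPM. Only 8 of 2993 genes have at least 20 TSSs in the table, and 2304 have 1.

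**Figure D3:**
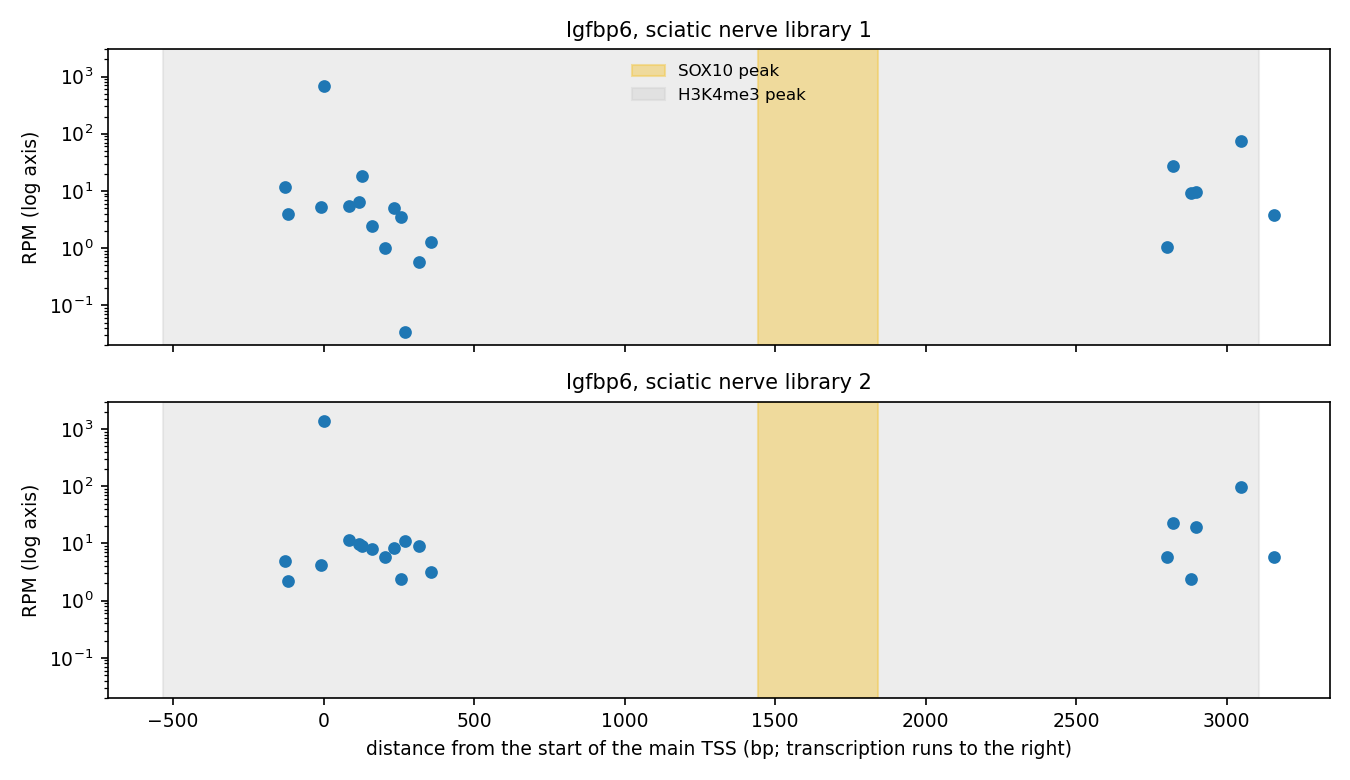
RPM (log axis) of the 20 Igfbp6 TSSs in each nerve library (points) against distance in bp from the main TSS, with the SOX10 peak and the H3K4me3 peak shaded. The SOX10 peak lies between 14 upstream and 6 downstream TSSs, and 1 upstream TSS drops to 1 read in the first nerve.

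Among the other 19 Igfbp6 TSSs, 2 exceeded 20 RPM. TSS 19 (141549207 to 141549301), the broadest at 95 bp, had 73.8 and 99.0 RPM. TSS 16 (141548979 to 141549000) had 26.9 and 22.7 RPM. Both belong to the downstream block. The 19 ranged from 2.25 to 86.4 RPM in mean, with a median of 5.55. Widths ran from 2 to 95 bp with a median of 3.5 bp, against 57 bp over all candidates, and 14 of the 20 were at most 4 bp wide.

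The nerves differed in the smaller Igfbp6 TSSs as well as in the main one. Relative to the first nerve, 13 of 20 were higher in the second and 7 were lower, while 54.2% of all TSSs in the table were higher there. The median size of the difference was 0.94 on the log2 scale, against 0.57 over all 4993 TSSs. TSS 12 (141546428 to 141546430) had 1 read (0.0334 RPM) in the first nerve and 425 reads (11.1 RPM) in the second. TSS 13 (141546475 to 141546477) had 0.569 and 9.15 RPM. TSS 17 (141549041 to 141549044) went the other way, with 9.33 and 2.42 RPM. The n of 2 nerves allows no test of these differences.

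Of the 240 Igfbp6 values in 12 culture libraries, 235 were 0. The second parental library held 76 reads in 3 TSSs, nearly all at the main TSS. Clone 1-1 held 15 reads, 0.382 RPM, all at TSS 2 (141546039 to 141546042), a TSS of 3.91 and 2.19 RPM in nerve. The first parental library and the other 3 clones held none. With at most 1 library above 1 RPM, no Igfbp6 TSS passed the filter on low values between ΔSOX10 and parental cells. Without the filter, 4 of the 20 had a read in S16 cells and were fitted, and limma called 0 of them (0 also at an unadjusted p under 0.05). The main TSS differed by -0.77 on the log2 scale (SE 0.39, adjusted p = 0.377 by limma), a value set by the second parental library alone. At this depth a difference under the floor of 0.0678 to 0.0855 RPM per library was not detectable. At 3 reads or fewer in every primary cell library stood 444 of the 4993 candidates (8.89%), all 20 of Igfbp6 among them. Above 50 RPM in nerve, a level chosen after the values were seen, 4 of the 444 remained, namely the main TSS and TSS 19 of Igfbp6 and 1 TSS each of Pmp22 (a myelin protein gene, 158 RPM) and Cfd (complement factor D, 55.5 RPM).

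Markers of the cells that nerve holds and cultures may lack were counted beside Igfbp6. Itgb4, an integrin of perineurial and myelinating Schwann cells and the only 1 of 8 perineurial markers in the table, had summed values of 51.1 and 51.5 RPM in nerve, at most 5.09 RPM in primary cells and 0 in all 6 S16 libraries. Of 12 fibroblast markers 2 were in the table. Col1a1, a collagen gene and the more abundant, had 133 RPM in nerve, 870 RPM in control cells and 2541 RPM in parental S16 cells, and Pdgfra had 3.11 RPM in nerve and at most 1.29 RPM in any culture library. Csf1r, the only 1 of 12 macrophage and lymphocyte markers, had 4.82 and 1.07 RPM in nerve, 0 in primary and parental cells and at most 0.966 RPM in the clones. Of the pericyte and smooth muscle markers (2 of 10) Pdgfrb had 42.7 RPM in nerve, 1.24 RPM in control and 26.4 RPM in cAMP cells, and Mcam 14.5, 160 and 167 RPM. None of the 12 listed endothelial and 6 listed adipocyte markers is among the candidates, and Cfd is on neither list. The part of these cell types in the Igfbp6 level was not tested. In a bulk sample, fewer cells of a type and less RNA per cell cannot be told apart.

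Schwann cell markers were measured in every group. Of 20 markers 15 were in the table, and their sum was 76964 and 78165 RPM in nerve, 10256 to 10511 RPM in control and 12903 to 14737 RPM in cAMP cells, 15525 and 15349 RPM in parental S16 cells and 3944 to 7482 RPM in the clones. Pmp22 was the most abundant in nerve (43963 RPM), and Prx, a myelin sheath gene, was listed at 0 in control and both S16 groups. Between control and cAMP cells, where Igfbp7 differed most, Ngfr (a receptor of immature Schwann cells) had 2622 and 794 RPM. The fibroblast sum was between 803 and 909 RPM in control and between 370 and 466 RPM in cAMP libraries, a smaller ratio than that of Igfbp7, and its part in the Igfbp7 level was not tested.

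Of the wider IGF pathway, 27 of 88 listed genes have a candidate TSS, the 2 binding proteins included. No ligand and no receptor is among them (0 of 4 each), and the third binding protein is Igfbp4, an inhibitor of IGF action in many tissues. Its single TSS had 7.96 and 12.7 RPM in nerve, 2.55 to 11.5 RPM in control and 3.80 to 6.44 RPM in cAMP cells. The control range overlapped both others, while the nerve range lay above the cAMP range. It had 7.89 and 6.32 RPM in parental cells and 9.89, 68.9, 43.9 and 7.10 RPM in the clones 1-1, 1-2, 2-1 and 2-2. Clones 1-2 and 2-1 stood far above the rest, and clone 2-2 lay within the parental range. The log2 difference of 1.51 (SE 0.82) did not pass limma (adjusted p = 0.373) and passed DESeq2 on recovered reads alone (2.42, adjusted p = 0.0138).

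With cAMP, 7 of 31 tested TSSs of 23 other pathway genes rose and 2 fell (22.6 and 6.45%, beside 12.9 and 11% of all tested TSSs, with a median log2 change of 0.14 against 0.02). The TSSs that rose belong to 3 of the 23 genes. Cdkn1b encodes p27, a cell cycle inhibitor that AKT restrains, and 4 of its 6 TSSs rose, the most by 2.74 on the log2 scale (SE 0.21), from 16.8 ± 1.35 to 120 ± 27.4 RPM (SD, n = 3). The least certain of the 4 (1.27, SE 0.42, limma adjusted p = 0.0305) lost its call with edgeR, with a pseudocount of 0.1, without the filter, and without any 1 of 5 libraries (the first and second control and each cAMP library). Both TSSs of Akt1s1, a subunit of mTOR complex 1 that AKT phosphorylates, rose by 1.18 (SE 0.20) and 0.79 (SE 0.20), the second no longer called without the first cAMP library (limma adjusted p = 0.0561). Pik3r1, a regulatory subunit of PI3K, rose by 1.51 (SE 0.29). Its values were 23.1, 17.5 and 9.23 RPM in control and 46.2, 40.8 and 52.4 RPM in cAMP libraries.

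The 2 TSSs that fell belong to Map2k1 and Adam9. Map2k1, the kinase directly above ERK, had 121, 121 and 114 RPM in control and 40.7, 32.9 and 45.5 RPM in cAMP libraries. It fell by 1.57 on the log2 scale (SE 0.17). Adam9, a membrane metalloprotease listed with the proteases, had 15.8, 16.3 and 17.8 RPM in control and 3.04, 3.35 and 2.70 RPM in cAMP libraries, and fell by 2.13 (SE 0.41). Of the adaptors, the other tested regulatory subunits of PI3K, the S6 kinases and the TSC subunits none passed. Grb14, an adaptor that inhibits insulin receptor signalling, was singled out after its values were seen and had 10.3 and 25.3 RPM in nerve and was listed at 0 in all 12 culture libraries.

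In S16 cells, limma called 0 of 29 tested TSSs of these 23 genes, beside 8.21% of all tested TSSs. At an unadjusted p under 0.05 there were 3 (Pik3r1, Map2k1 and 1 TSS of Bad, the last outside the naming rule), beside 20% of all tested TSSs. EdgeR on recovered reads called 0 of the 29, and DESeq2 called 1, that of Igfbp4. The median log2 difference was -0.07 against -0.18 over all tested TSSs. Pik3r1 had the lowest p, with 29.7 and 22.7 RPM in parental cells and 13.0, 14.5, 1.72 and 6.24 RPM in the clones. Its groups did not overlap, and its log2 difference was -1.74 (SE 0.66, adjusted p = 0.176 by limma).

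**Figure D4:**
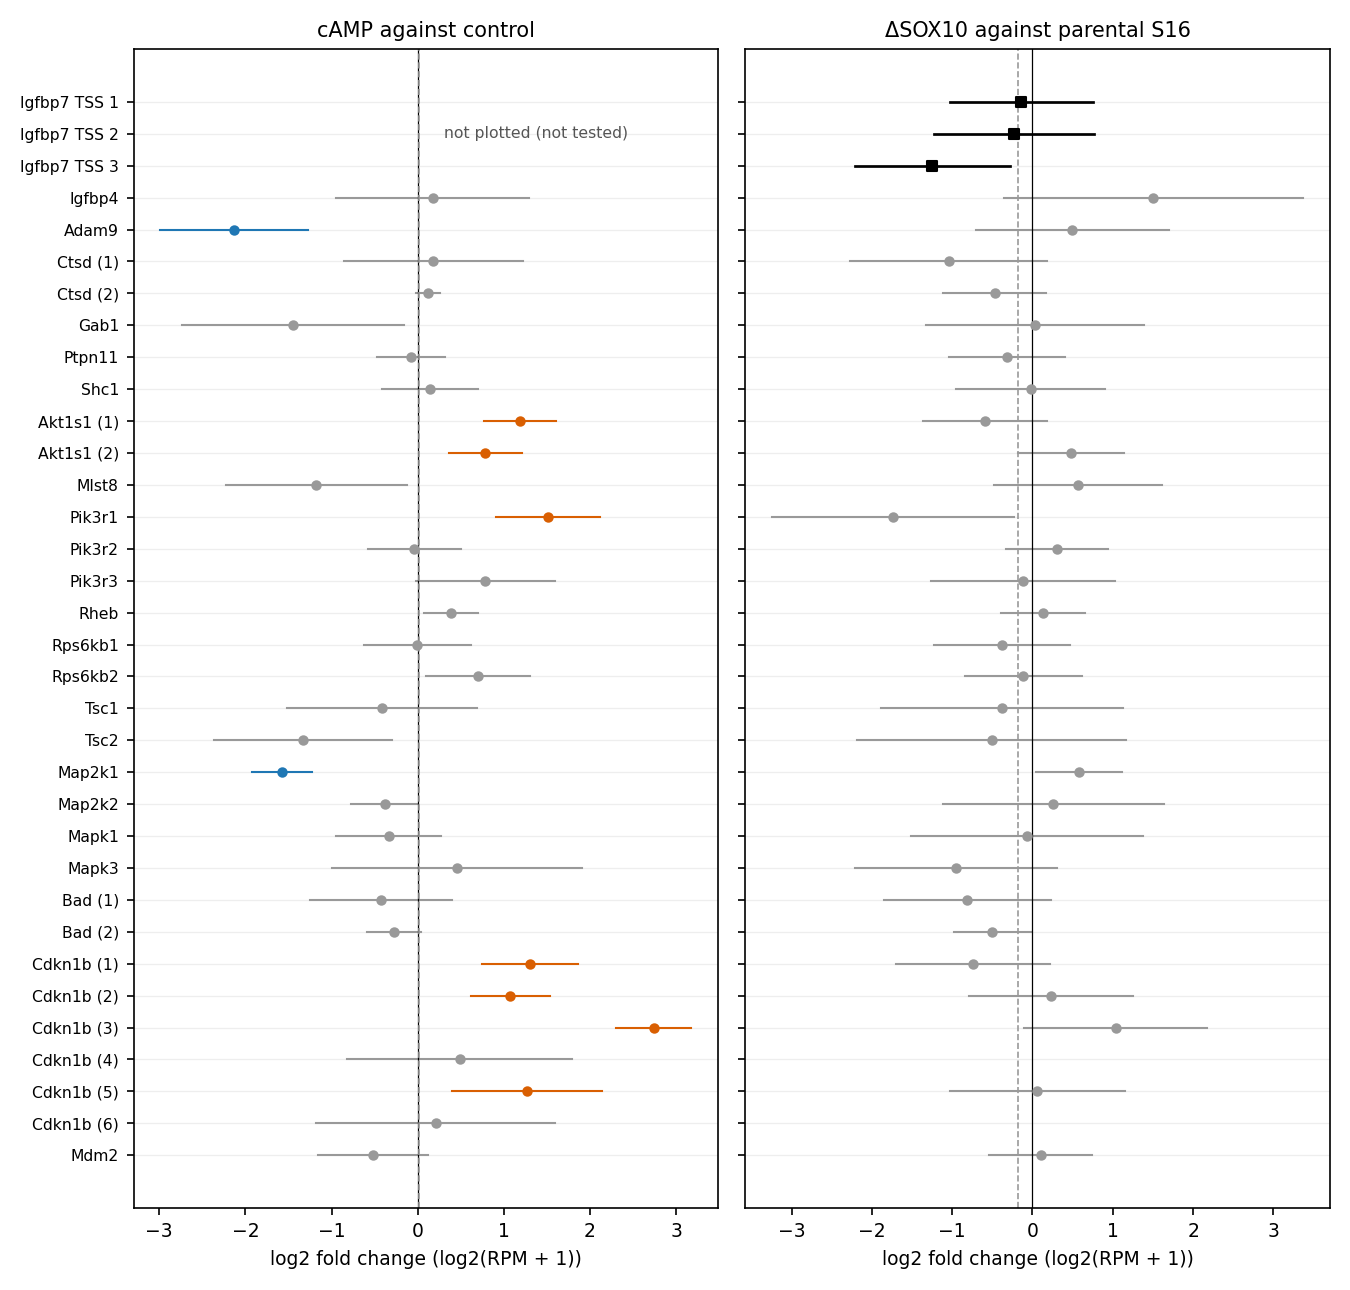
Log2 fold change of log2(RPM + 1) for each tested TSS of the IGF pathway list (points) with its 95% interval (lines), for cAMP against control (left) and ΔSOX10 against parental S16 cells (right), with several TSSs of 1 gene numbered by position. Orange and blue mark TSSs called higher and lower at an adjusted p under 0.05, black squares are the 3 Igfbp7 TSSs, which are plotted on the right alone, and dashed lines are the median of all tested TSSs. The cAMP panel holds 7 TSSs called higher and 2 called lower, and the S16 panel none.

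The genes whose main TSS ran most like that of Igfbp6 over 14 libraries, by Pearson's r of log2(RPM + 1) among 2411 genes, were Mmp23 (0.99), Tmod2 (0.99), Foxs1 (0.99), Magi2 (0.98) and Ncmap (0.97). Ncmap, a myelin-associated membrane protein gene, had 1275 RPM in nerve, 0 in control, 1.67 in cAMP and 0.662 RPM in parental cells. Mmp23, Tmod2 and Foxs1 had 13.0, 13.4 and 16.9 RPM in nerve and were listed at 0 in every culture group. Because 12 of the 14 points are near 0, these r values rest on the 2 nerves against the rest.

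For Igfbp7 the likest genes were Arid5b (0.91), Mir22hg (0.90), Aqr (0.90), Klhdc8b (0.84) and Tln1 (0.82). Each was highest in control cells, but by far less than Igfbp7. Arid5b, a chromatin-binding protein gene, averaged 122 RPM without and 31.7 RPM with cAMP. Tln1, which links integrins to actin, had 192 and 98.3 RPM. Mir22hg, the host transcript of a microRNA, had 65.7 and 9.45 RPM. The libraries of a group share medium and instrument, so these 14 points are not independent.

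Genes within 500000 bases were looked up to see whether their TSSs had the same pattern. Near Igfbp7 stood 1 candidate TSS, that of Polr2b (an RNA polymerase II subunit), 97.4 kb away. Its level was 19.9 ± 5.31 RPM without and 23.4 ± 3.93 RPM with cAMP (SD, n = 3), and it passed neither test (adjusted p = 0.617 and 0.855 by limma). Near Igfbp6 stood 17 TSSs, 4 of them with no symbol and the rest of 9 genes (Eif4b, Mfsd5, Myg1, Prr13, Pcbp2, Tarbp2, Spryd3, Rarg and Atf7), at 2.59 to 32.2 RPM in nerve. Just 2 of the 17 were at 0 in all culture groups, 1 of Atf7 and 1 with no symbol, both under 3 RPM in nerve. The nearest, Spryd3, 11.3 kb away on the minus strand, had 7.55 RPM in nerve, 24.0 RPM in parental cells and 46.3 RPM in the clones, and rose in the clones by 0.92 on the log2 scale (SE 0.22, adjusted p = 0.0402 by limma). That call was lost with edgeR (adjusted p = 0.0622), without either parental library (0.322 and 0.401) and without clone 1-2, 2-1 or 2-2 (0.0810, 0.0832 and 0.0733). With cAMP, 4 of 13 tested TSSs near Igfbp6 rose and 1 fell, beside 12.9 and 11% of all tested TSSs. Eif4b, a translation initiation factor gene 70.0 kb upstream, rose by 1.02 on the log2 scale (SE 0.21), a TSS with no symbol by 0.94 (SE 0.25), and Pcbp2 by 0.97 (SE 0.32), and Prr13 fell by 0.88 (SE 0.15). The fourth that rose, of Tarbp2, averaged 13.5 ± 7.33 RPM without and 29.1 ± 11.3 RPM with cAMP (SD, n = 3). The calls of Pcbp2 and Tarbp2 (limma adjusted p = 0.0317 and 0.0431) were lost with a pseudocount of 0.1 and without the filter, that of Tarbp2 also with edgeR. Leaving out 1 library ended the call of Pcbp2 for each control library and for cAMP replicates 1 and 2, and that of Tarbp2 for control replicates 2 and 3 and cAMP replicates 1 and 3. The tested TSSs of Mfsd5, Myg1, Rarg and Atf7 passed neither test; the main ones of Mfsd5 and Myg1 averaged 58.4 and 67.6 RPM without and 60.8 and 68.0 RPM with cAMP.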

How the data were processed

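Values analysed here are RPM per candidate TSS in 14 Tn5Prime libraries, as deposited. The authors trimmed reads with cutadapt 1.14, mapped them to rn5 with STAR 2.5.2a, converted them with SAMtools 1.9, clustered read starts with Paraclu and counted each TSS with featureCounts (Subread 1.6.1), per the labels and the study's methods. Columns of the authors' own edgeR 3.24.3 comparisons (fold changes and FDR values) were not used. RPM values not rounded in the table were whole multiples of what 1 read is worth (100% within 0.02 reads), which gave the read totals. The second nerve had too few low values for a check of that step. In both parental libraries and clones 1-1 and 1-2, 467 values each, Igfbp7 included, were rounded to 3 digits, so their reads are approximate. Reads carry no molecular identifier in the sources used here, so floors (3 reads) cover counting error only.

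Each comparison used its own 6 libraries. TSSs above 1 RPM in at least 2 of them were tested with limma 3.58.1 (R 4.3.3, lmFit, then eBayes with trend) on log2(RPM + 1), which understates changes of low TSSs, with Benjamini-Hochberg adjustment over all of them and a threshold of 0.05. The fit was tested on simulated data, and the outcome of that check is not reported here. Per the study's methods, primary cell libraries came from separate populations of cells and ΔSOX10 libraries from separate clones, while the parental libraries are separate RNA samples of 1 line. Intervals are 95% limits from the limma fit for single TSSs. Promoter windows came from RefSeq (GRCr8), where both genes matched by symbol. Alternatives were pseudocounts of 0.1 and 5, omitting the filter or asking for a mean of 5 RPM, TMM and median-ratio scaling, edgeR 4.0.16 (quasi-likelihood) and DESeq2 1.42.0 on recovered reads, TSSs summed per gene, each library left out and a replicate block.

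The genes, the IGF pathway and marker lists and the naming rule were chosen with earlier results of these data known. Named are every TSS of Igfbp6 and Igfbp7, IGF pathway genes with a called TSS and all binding proteins in the table, for each gene the 5 genes of highest Pearson's r with at least 10 RPM in some group mean, genes within 500000 bases, and marker genes in the table. Bad, Grb14 and Cfd fall outside this rule and were chosen after their values were seen. The single values of 1 marker gene are not reported here.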

Additional observations from a re-analysis of the deposited data

Results flagged for a closer look

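In the 4 ΔSOX10 clones, clone 2-2 stood apart at TSS 2 of Igfbp7 by Dixon's criterion, which chance meets in about 1 of 20 groups. It had 3.85 RPM (135 reads) while the others had 3.28 to 3.36 RPM. At TSS 2 of Igfbp6, clone 1-1 had 0.382 RPM (15 reads) while the others had 0. Where 3 of 4 values are 0, any value above 0 meets the criterion by construction, so that chance rate does not apply.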

How the results depend on the processing

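Between ΔSOX10 and parental cells, 64 TSSs were called higher and 254 lower. The count of higher calls was 164 with DESeq2 and 28 to 55 with 1 library left out, the fewest without either parental library (36 and 28). That of lower calls was 166 with a mean of at least 5 RPM, 165 with TSSs summed per gene and 71 to 265 with 1 library left out, again fewest without either parental library (71 and 74). IGF pathway calls in S16 cells stayed at 0 but for 1 higher with DESeq2. The log2 difference of Igfbp7 TSS 1, -0.14, turned to 0.010 with TMM scaling, 0.011 with median-ratio scaling and 0.093 with DESeq2, and ran from -0.45 to 0.16 with 1 library left out, positive without the second parental library (0.16) or clone 1-1 (0.062). That of TSS 2 ran from -0.82 to 0.36, positive without the second parental library, and that of TSS 3 from -1.44 to -1.11, with -1.54 and -0.70 under pseudocounts of 0.1 and 5. No Igfbp7 TSS passed where it had a value. TSSs 2 and 3 had none of their own with a mean of at least 5 RPM or summed per gene, and the cause of the sign changes was not tested.

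In primary cells, 530 TSSs were called higher and 452 lower (409 to 465 and 340 to 390 with 1 library left out). The 7 IGF pathway TSSs called higher and 2 called lower became 3 genes higher and 3 lower when TSSs were summed. Over the whole table that setting called 416 higher and 419 lower. The log2 values of Igfbp7 with cAMP kept their sign: TSS 1 was -7.86 with a pseudocount of 5, TSS 2 was -6.89 and -4.02 with 0.1 and 5, and TSS 3 was -9.32 and -3.89, with -12.5 by edgeR and -12.8 by DESeq2, since cAMP cells hold almost no reads of it. With 1 library left out they ran from -8.33 to -8.03, -5.94 to -4.99 and -6.21 to -6.07. The log2 difference of Igfbp4 with cAMP, 0.17, was -0.084 by edgeR, -0.082 by DESeq2 and -0.14 to 0.77 with 1 library left out. Same-numbered control and cAMP libraries were not paired by the labels and their deviations were uncorrelated (r of 0.029, 0.008 and 0.038). With a replicate block, 553 TSSs were called higher and 467 lower, IGF pathway calls were again 7 and 2, and the log2 values of Igfbp7 were -8.20, -5.53 and -6.13. No control library correlated with its own number above 0.1. For S16 cells no paired analysis was possible because parental libraries and clones share no replicate numbers.

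Scaling over all 14 libraries moved the nerve level of the main TSS of Igfbp7 from 90.6 to 118 RPM (TMM) and 149 RPM (median-ratio), and that of Igfbp6 from 1025 to 1687 RPM (median-ratio). With 1 nerve left out these levels were 71.4 to 110 and 678 to 1372 RPM. Of the 5 genes most like Igfbp6, 3 were shared when group means were used and 2 with Spearman's rho, and for Igfbp7 2 and 0. Depth limits the folds of the main Igfbp6 TSS against control, cAMP and ΔSOX10 cells and of Igfbp7 TSS 3 against cAMP cells to bounds, and 2 nerves allow no test between them.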
